A study of Mus musculus with 45 samples.

Results

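Cxcl9 and Cxcl10 encode chemokines that bind the receptor CXCR3, and they were 2 of the 19752 genes represented on the arrays by a probe set with 1 gene symbol. Each gene had 1 such probe set (10531407 for Cxcl9, Entrez gene 17329, and 10531415 for Cxcl10, Entrez gene 15945), so the rule of taking the probe set with the highest mean over 45 arrays left no choice. Both genes were among the 11074 tested. Macrophages came from skeletal muscle, taken from male C57Bl6 mice after cardiotoxin, a venom toxin that destroys muscle fibres, and 45 RNA samples in 18 groups were hybridised to Affymetrix Mouse Gene 1.0 ST arrays. Foxp3.DTR+ mice carry a diphtheria toxin receptor driven by the Foxp3 locus, so that diphtheria toxin (DT) removes regulatory T cells, and Foxp3.DTR- mice lack it. The series title asks how these T cells, through interferon-gamma (IFN-γ), shape macrophages in regenerating muscle.

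The gate was Ly6g- CD11b+ F4-80+, with separate MHCII+ and MHCII- subsets; MHCII stands for the class II antigen-presenting molecules. The day 7 set titled 24 h DT (age 8 weeks) held 2 DTR+ and 4 DTR- MHCII+ arrays, and 3 DTR+ and 3 DTR- MHCII- arrays. The day 7 set titled 8 h DT (12 weeks) held 3 DTR+ and 3 DTR- MHCII+ arrays, and 3 DTR+ and 4 DTR- MHCII- arrays. Day 1 with 24 h DT (8 weeks) held 2 arrays of each genotype in each subset. A further day 7 set whose titles give no DT time (10 weeks), called the untimed set here, held 2 DTR+ and 2 DTR- arrays of MHCII+ cells only. Day 4 (8 weeks) and uninjured day 0 muscle (10 weeks) held 2 DTR- arrays per subset. The gate also left out SiglecF+ cells in the 8 h, day 1 and day 4 samples, and required CD45+ DAPI- cells on days 1 and 4. The labels do not say from which moment the hours run, do not mention DT for the day 0, day 4 and untimed samples, and do not state that samples came from separate animals, so p-values measure the spread between samples, which may be technical. Groups follow the titles, because the marker entry reads MHCII- for all but the day 0 MHCII+ samples. H2-Ab1, a class II gene, lay at log2 13.67 to 14.01 in the 24 MHCII+ arrays and at 7.81 to 12.45 in the 21 MHCII- arrays. The genotype cannot be checked on these arrays. All 7 macrophage markers lay above the intensity filter on every array, and within-group correlations ran from 0.933 to 0.997. The macrophage marker level was low in 24 h DTR+ MHCII- replicate 3, in 8 h DTR+ MHCII+ replicate 1 and in both day 0 MHCII+ arrays. Neutrophil marker genes stood out in day 0 MHCII- replicate 1 and 24 h DTR- MHCII+ replicate 3, and T and NK cell marker genes in 8 h DTR+ MHCII+ replicate 1, as given beside the results.

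CXCR3 is carried by activated T helper 1 cells, cytotoxic T cells and natural killer cells, and its ligands draw these cells into inflamed tissue. Cxcl9 is also known as monokine induced by gamma interferon, and it depends largely on that cytokine. Cxcl10 is induced by IFN-γ as well, but also by type I interferons and by NF-kB after Toll-like receptor or tumour necrosis factor signals. In the reference annotation both genes lie on chromosome 5 with Art3 between them, and Cxcl11, the third CXCR3 ligand gene, follows Cxcl10. Cxcl11 is annotated there as a transcribed pseudogene.

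The 250 bases before each annotated start are shown because exact matches to short interferon, NF-kB and AP-1 motifs were found in 1 of the 2 windows only. They are RefSeq sequences of build GRCm38.p6, both on the minus strand, at chr5:92328080-92328329 for Cxcl9 and chr5:92348890-92349139 for Cxcl10, printed 5′ to 3′ with motif matches in capitals. The array's own build is not named in the sources used here.
Cxcl9: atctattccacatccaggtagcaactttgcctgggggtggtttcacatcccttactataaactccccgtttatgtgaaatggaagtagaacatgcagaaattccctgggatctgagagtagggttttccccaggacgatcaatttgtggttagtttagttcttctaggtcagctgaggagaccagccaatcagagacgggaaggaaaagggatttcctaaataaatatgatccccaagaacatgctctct
Cxcl10: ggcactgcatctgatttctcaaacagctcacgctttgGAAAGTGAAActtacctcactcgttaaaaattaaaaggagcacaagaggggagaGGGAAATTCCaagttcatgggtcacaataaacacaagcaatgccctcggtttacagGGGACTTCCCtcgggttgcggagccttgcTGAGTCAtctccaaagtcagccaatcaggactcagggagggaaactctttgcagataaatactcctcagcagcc
The letters searched on both strands for the interferon-stimulated response element (ISRE) were a pair of GAAA half-sites with 2 bases between them. Those for the interferon-gamma activated site (GAS) were TTCNNNGAA, and those for AP-1 TGANTCA. The NF-kB consensus was GGGRNWYYCC, where R is A or G, W is A or T, Y is C or T and N is any base. A stretch that missed 1 letter was not counted. The Cxcl10 window held 1 ISRE match 213 to 204 bases before the start, NF-kB matches at 159 to 150 and 103 to 94, and 1 AP-1 match at 74 to 68, none overlapping another. The Cxcl9 window held no match to any of the 4 motifs, and neither window held the GAS letters. Of 32851 RefSeq mouse promoter windows searched in the same way, 2.98% held the ISRE letters, 7.02% the GAS letters, 3.9% the NF-kB consensus and 6.75% the AP-1 letters. A match describes the letters in the window and not a bound site, and a window without one says nothing about the factor.

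Cxcl9 ranged from log2 6.66 to 13.27 over the 45 arrays and Cxcl10 from 9.23 to 13.60. The SD of the 18 group means was 1.98 for Cxcl9 and 0.78 for Cxcl10, which placed Cxcl9 at percentile 99.9 and Cxcl10 at percentile 97.5 of all tested genes. The residual SD within groups was also large, at 0.47 for Cxcl9 (percentile 99.2) and 0.40 for Cxcl10 (percentile 98.4). Ordered by mean, the highest Cxcl9 groups were the untimed DTR+ MHCII+ samples (13.24), the 24 h DTR+ MHCII+ samples (12.33) and the 8 h DTR+ MHCII+ samples (11.69). Their ranges were 13.22 to 13.27, 12.24 to 12.42 and 11.09 to 12.06, with no overlap between neighbours. From there the 8 h DTR+ MHCII+, 24 h DTR- MHCII+ (mean 11.43) and 24 h DTR+ MHCII- (11.09) groups overlapped one another. The MHCII+ DTR- groups of the 8 h set (10.68), the untimed set (10.65), day 4 (10.44) and day 0 (10.43) came next, with the 8 h and untimed arrays above all day 4 arrays and the day 4 and day 0 arrays overlapping. The MHCII- groups of day 7 at 24 h DTR- (9.65), 8 h DTR+ (9.60) and 8 h DTR- (9.58), and of day 4 (9.19), overlapped. The lowest Cxcl9 means were those of all 4 day 1 groups and of day 0 MHCII- cells, between 6.80 and 7.49, under the intensity filter of 7.57. That filter is the median of all values and no background measurement, so differences that involve these groups are given on the log2 scale without a fold.

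The Cxcl10 means ran from 13.25 in 24 h DTR+ MHCII+ cells to 9.96 in day 0 MHCII- cells. Each group's range overlapped that of the next in the order, except between day 1 DTR- MHCII- (11.29) and day 0 MHCII- cells. Day 4 DTR- cells were near the top of the order, at 13.02 in MHCII+ and 12.86 in MHCII- cells. The untimed DTR+ MHCII+ group, the highest for Cxcl9, averaged 12.77 for Cxcl10. Over the 18 group means the 2 genes correlated with r = 0.704 (Spearman's rho 0.690), and over the deviations of the 45 arrays from their group means with r = 0.359. These are descriptions, since many of the 18 groups belong to the same set and are not independent.

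**Figure D1:**
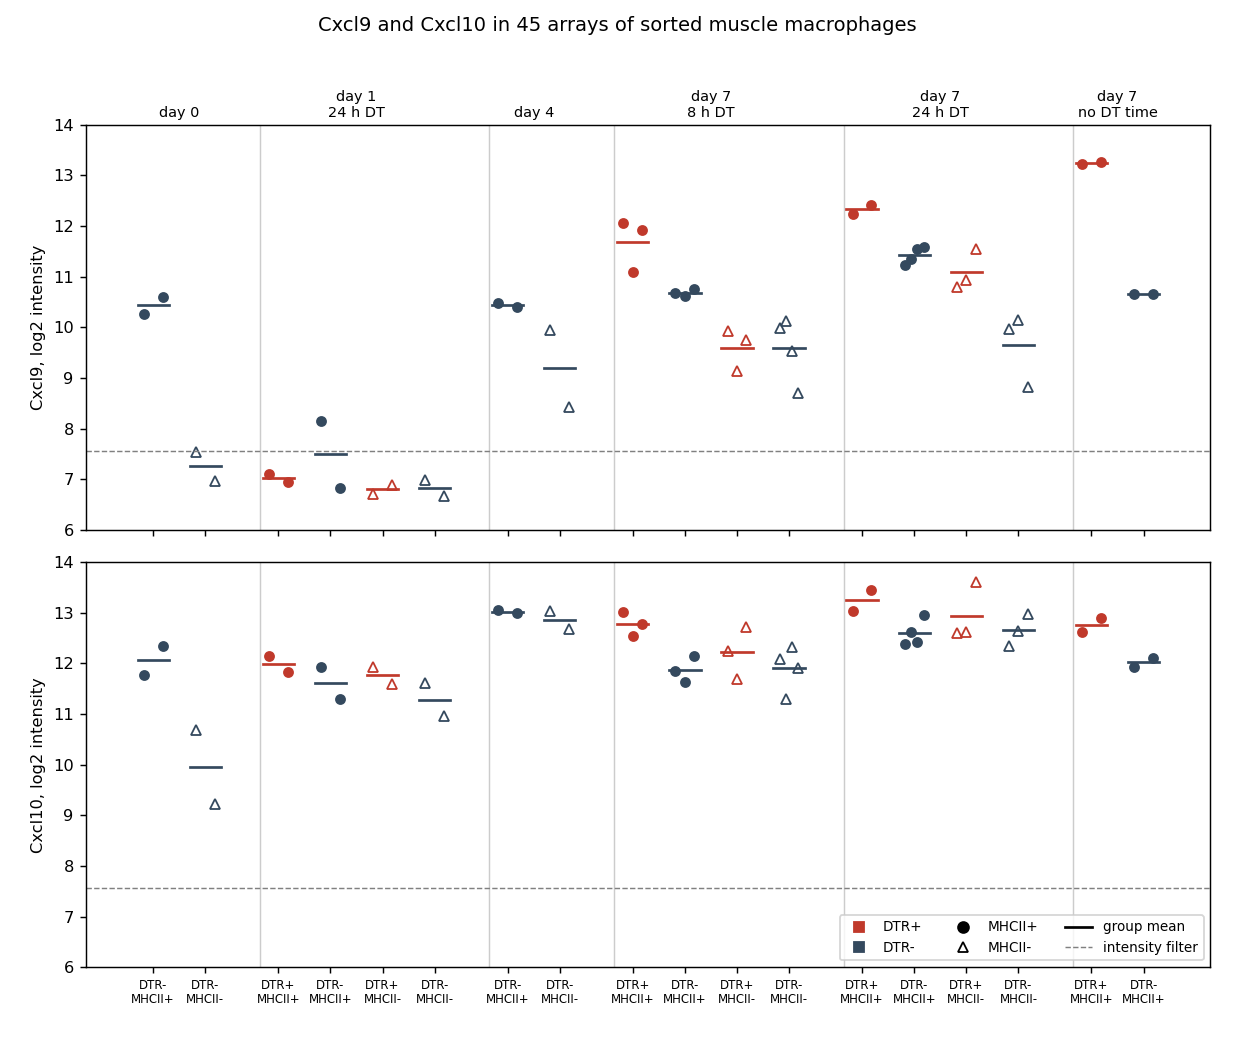
Log2 intensity of Cxcl9 (upper panel) and Cxcl10 (lower panel) on each of the 45 arrays, by set, genotype and MHCII subset (DTR+ red, DTR- dark, filled circles MHCII+, open triangles MHCII-, horizontal lines group means, dashed line the intensity filter of 7.57). Cxcl9 spans 6.66 to 13.27 with the day 1 groups lowest, and Cxcl10 stays between 9.23 and 13.60; levels of the 2 probe sets are not comparable with each other.

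In the untimed day 7 set Cxcl9 rose in DTR+ cells and Cxcl10 did not pass the test. Cxcl9 read 13.22 and 13.27 in the DTR+ arrays, against 10.65 and 10.65 in the DTR- arrays. The groups were apart by 2.56, and the difference was 2.59 ± 0.43 on the log2 scale (SE, n = 2 DTR+ and 2 DTR-, a 6.03-fold higher intensity with an interval of 3.28 to 11.1; limma adjusted p = 4.3e-05). This was one of the 5.32% of tested genes called higher in this comparison, where 6.2% were called lower and 11.5% in either direction, and it ranked 254th by p. Leaving out each array in turn gave 2.56 to 2.62. Cxcl10 read 12.63 and 12.91 in DTR+ arrays, against 11.93 and 12.11 in DTR- arrays. Its groups did not overlap either, but with 2 arrays each this is a description and no test. The difference of 0.75 ± 0.37 did not pass in the fit over all arrays (limma adjusted p = 0.23). It passed when the 4 arrays of this set were fitted alone (adjusted p = 5.3e-04) and with array quality weights (adjusted p = 0.015). Taken as the ratio within each array, the Cxcl9 difference exceeded that of Cxcl10 by 1.84 (95% interval 0.83 to 2.86).

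In the 24 h day 7 set Cxcl9 lay higher in DTR+ cells of both subsets. No groups overlapped, but with so few arrays per group this can occur without a genotype effect. The share of all tested genes with groups apart was not counted. In MHCII+ cells it read 12.24 and 12.42 in the DTR+ arrays, against 11.23, 11.36, 11.55 and 11.58 in the DTR- arrays, a difference of 0.90 ± 0.37 (limma adjusted p = 0.76, 0.0542% of genes called). In MHCII- cells it read 10.79, 10.94 and 11.54 in the DTR+ arrays, against 8.83, 9.96 and 10.15 in the DTR- arrays, a difference of 1.44 ± 0.35 (limma adjusted p = 0.29, 0.00903% called). Neither passed alone, although the MHCII- difference stood 10th of 11074 genes by p. Over both subsets together Cxcl9 rose by 1.17 ± 0.26 (a 2.25-fold difference, limma adjusted p = 0.047, 5 DTR+ and 7 DTR- arrays), among 0.154% of genes called. The main fit took same-numbered MHCII+ and MHCII- arrays of a genotype as independent. With them as a replicate block (estimated correlation 0.392) the difference was 1.19 and did not pass (limma adjusted p = 0.22). The call of the main fit lies close to the threshold. It was lost in 11 of 12 fits that left out 1 array, with adjusted p from 0.053 to 0.25 and differences from 0.97 to 1.25, and it held only without DTR- MHCII- replicate 2 (1.30, adjusted p = 0.028). DTR- MHCII- replicate 3 had the lowest Cxcl9 value, 8.83, and without it the MHCII- difference was 1.03. DTR- MHCII+ replicate 3 held a neutrophil marker sum of log2 10.64, against 8.77 to 8.97 in the other DTR- MHCII+ arrays, and without it the difference over both subsets was 1.19 (adjusted p = 0.076).

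Cxcl10 did not pass in any comparison of the 24 h set. In MHCII+ cells it read 13.04 and 13.46 in the DTR+ arrays, against 12.39, 12.43, 12.61 and 12.95 in the DTR- arrays, a difference of 0.65 ± 0.32 (limma adjusted p = 0.77). These groups were apart by only 0.09. In MHCII- cells the DTR+ arrays read 12.60, 12.62 and 13.60, against 12.35, 12.64 and 12.97 in the DTR- arrays. Those groups overlapped, the difference was 0.29 ± 0.30, and the 95% interval ran from -0.32 to 0.90. Without DTR+ MHCII- replicate 3, which holds the value 13.60, the difference was -0.04. That array was the highest of its group for both chemokines and stood apart in other genes. Its macrophage marker sum was log2 15.06 (15.53 to 15.56 in the other DTR+ MHCII- arrays, 15.45 to 15.51 in the DTR- MHCII- arrays), and its IFN-γ-induced sum was 13.67 (14.36 to 14.38 in the other DTR+ MHCII- arrays, 13.66 to 13.82 in the DTR- MHCII- arrays). Its dendritic cell sum was 9.75 and its neutrophil sum 9.17, against 9.30 to 9.31 and 8.68 to 8.72 in the other DTR+ MHCII- arrays. Without it the Cxcl9 difference was 1.22 in MHCII- cells, and over both subsets it was 1.06 and no longer passed (limma adjusted p = 0.095). The part of these genes in the chemokine differences was not tested. Within arrays, the Cxcl9 difference in MHCII- cells exceeded that of Cxcl10 by 1.15 (0.32 to 1.99), and by 0.59 without DTR- replicate 3. In MHCII+ cells the same quantity was 0.25 (-0.63 to 1.13).

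In the 8 h day 7 set both chemokines lay higher in DTR+ MHCII+ cells, without passing the test, and overlapped in MHCII- cells. Cxcl9 in MHCII+ cells read 12.06, 11.09 and 11.93 in DTR+ replicates 1, 3 and 4, against 10.67, 10.61 and 10.76 in the DTR- arrays. Every DTR+ value lay above every DTR- value, which with so few arrays is a description and no test. The difference was 1.01 ± 0.35 (limma adjusted p = 0.16, 0.488% of genes called). Without DTR+ replicate 3 it was 1.31 (adjusted p = 0.036). Cxcl10 in MHCII+ cells read 13.01, 12.55 and 12.78 in DTR+ replicates 1, 3 and 4, against 11.85, 11.62 and 12.15 in the DTR- arrays. These groups did not overlap either, and the difference of 0.91 ± 0.30 was close to that of Cxcl9 (limma adjusted p = 0.15). The 2 differences were apart by 0.10, with an interval of -0.73 to 0.94. DTR+ MHCII+ replicate 1, highest for both genes, also had the highest T and NK cell marker level: the summed level of the 13 markers was log2 12.75, against 11.34 to 11.36 in the other DTR+ MHCII+ arrays and 11.25 to 11.37 in the DTR- MHCII+ arrays. Between 2 and 6 of the 13 lay at or above the filter on the DTR+ MHCII+ arrays, against 2 on each DTR- MHCII+ array. Replicate 1 also had a dendritic cell sum of 11.26, against 10.08 and 10.25 in the other DTR+ MHCII+ arrays and 9.79 to 10.19 in the DTR- MHCII+ arrays. Its macrophage sum was 14.96, against 15.30 and 15.47 in the other DTR+ MHCII+ arrays and 15.55 to 15.63 in the DTR- MHCII+ arrays, and 0 of 7 macrophage markers had a DTR+ minus DTR- difference above 0 (median -0.42). Without replicate 1 the Cxcl9 difference was 0.83 and that of Cxcl10 0.79. In bulk samples a change in the share of a cell type and a change in RNA per cell cannot be told apart.

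In MHCII- cells of the 8 h set Cxcl9 read 9.93, 9.13 and 9.74 in the DTR+ arrays, against 9.98, 10.13, 9.53 and 8.69 in the DTR- arrays. The ranges overlapped almost wholly, with a difference of 0.02 and an interval of -0.65 to 0.69 (limma adjusted p = 1.00, 0.0181% of genes called). Cxcl10 read 12.24, 11.70 and 12.72 in DTR+ arrays, against 12.09, 11.30, 12.32 and 11.91 in DTR- arrays. These ranges overlapped too, and the difference was 0.31 ± 0.28. Over both subsets the difference was 0.51 ± 0.24 for Cxcl9 (adjusted p = 0.35) and 0.61 ± 0.21 for Cxcl10 (adjusted p = 0.18), with 0.822% of genes called in limma and 0.722% called higher.

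On day 1 Cxcl9 was low in both genotypes and neither gene differed beyond the replicate spread. Cxcl9 in MHCII+ cells read 7.10 and 6.95 in the DTR+ arrays, against 8.16 and 6.82 in the DTR- arrays. In MHCII- cells it read 6.70 and 6.89 in DTR+ arrays, against 6.99 and 6.66 in DTR- arrays. All but 1 of these 8 values lay under the filter, and the genotypes overlapped. Cxcl10 read 12.15 and 11.83 in DTR+ MHCII+ arrays, against 11.93 and 11.30 in DTR- MHCII+ arrays, a difference of 0.38 ± 0.37. It read 11.94 and 11.60 in DTR+ MHCII- arrays, against 11.62 and 10.96 in DTR- MHCII- arrays, a difference of 0.48 ± 0.37. The genotypes overlapped in both subsets. No gene passed in limma in either subset (0% called), where 25 genes in MHCII+ and 154 in MHCII- cells had an unadjusted p under 0.05.

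**Figure D2:**
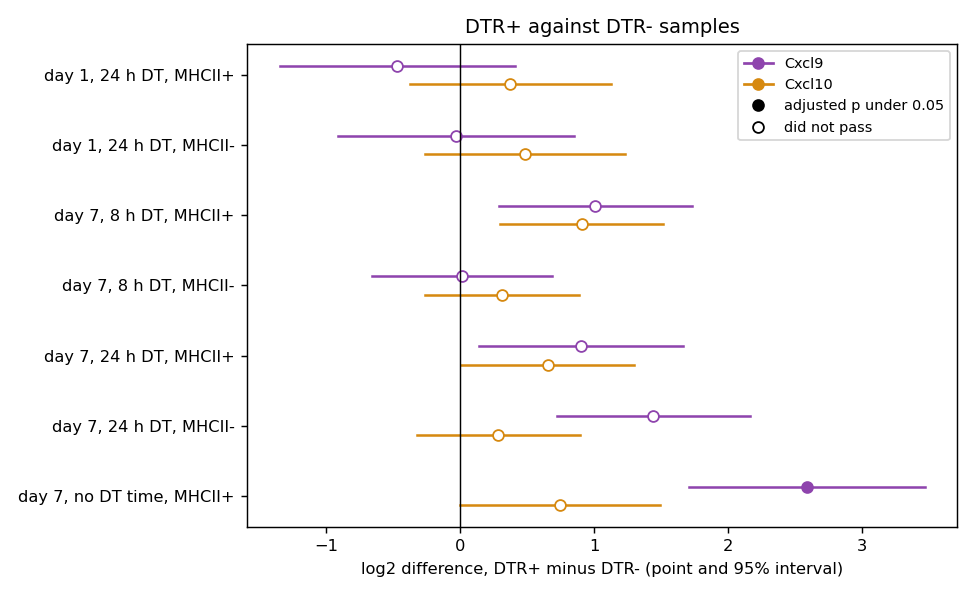
DTR+ minus DTR- difference in log2 intensity of Cxcl9 (purple) and Cxcl10 (orange) in each set and subset, with 95% intervals of the limma fit over 45 arrays; filled points passed an adjusted p of 0.05 and open points did not. The Cxcl9 difference in the untimed day 7 set, 2.59, is the filled point, and the Cxcl10 difference beside it is 0.75.

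The size of the genotype effect was compared directly between subsets and between DT times. The Cxcl9 effect in the 8 h set was larger in MHCII+ than in MHCII- cells by 0.99 ± 0.48, and in MHCII- cells it was larger at 24 h than at 8 h by 1.43 ± 0.48. Neither passed (limma adjusted p = 0.60 and 0.84). The other Cxcl9 contrasts were -0.54 between subsets at 24 h and -0.11 between 24 h and 8 h in MHCII+ cells. For Cxcl10 the 4 contrasts ran from -0.25 to 0.59 and did not pass. No gene passed in any of the 4 contrasts in limma (0% called), with 538 to 1319 genes at an unadjusted p under 0.05. The 8 h and 24 h sets also differed in age and gate, which cannot be told apart from the DT time.

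Other genes of the CXCR3 axis and of the interferon pathway were read beside the 2 chemokines, each list by its count and median. The lists were chosen with earlier results of these data known, so the counts are descriptions. In the untimed set 5.32% of all tested genes were called higher in DTR+ cells and 6.2% lower. There, 10 of 12 tested IFN-γ-induced genes were higher in DTR+ cells and 0 lower, with a median of 1.21, against -0.0099 over all tested genes. Among them Gbp4 (4.35 ± 0.41) and Gbp5 (2.44 ± 0.28), both interferon-inducible GTPases, and Cd274, the checkpoint ligand PD-L1 (2.21 ± 0.28), had the smallest p. Of 8 tested IFN-γ receptor and regulator genes 3 were higher: Socs1, a feedback inhibitor (1.55 ± 0.13), the kinase Jak2 (1.42 ± 0.19) and the transcription factor Batf2 (0.86 ± 0.13). Of 15 type I interferon-stimulated genes 5 were lower and 0 higher (median -0.67), including the RNA sensor Ddx58 (-0.89 ± 0.17) and the antiviral gene Mx2 (-1.21 ± 0.32). Of 9 NF-kB genes 1 was lower (Nfkbiz, -0.97 ± 0.28). Cxcl11 lay at 0.70 ± 0.24 (limma adjusted p = 0.058), but its level was low, with no group mean above 7.77. The receptor Cxcr3 fell by 1.06 ± 0.16. Dpp4, a protease that trims these chemokines, lay at 0.06 ± 0.25.

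Other marker genes also moved in the untimed set beside Cxcl9, where 5.32% of all tested genes were called higher and 6.2% lower. Clec9a, a dendritic cell marker, was higher in DTR+ cells by 3.19 ± 0.22, and the summed level of the 6 dendritic cell markers was log2 10.89 to 11.03 in DTR+ arrays, against 9.64 to 9.72 in DTR- arrays. It was the 1 called gene of 4 tested in that list. Pecam1, an endothelial marker that other cells also carry, was higher by 1.63 ± 0.19, 1 of 3 tested endothelial markers. Cd4 (-2.33 ± 0.25) and Cd2 (-0.81 ± 0.25) were lower in DTR+ cells, 2 of 3 tested T and NK cell genes. The summed level of that list was 10.56 to 10.63 in DTR+ arrays, against 11.34 to 11.38 in DTR- arrays. Of 6 muscle genes 5 were lower, and their summed level was 11.50 to 11.77 in DTR+ arrays, against 12.29 to 12.52 in DTR- arrays. The part of these genes in the Cxcl9 difference was not tested.

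In the 24 h set over both subsets, 5 of 12 IFN-γ-induced genes were higher in DTR+ cells and 0 lower (median 0.52, against -0.0048 over all tested genes). Of all tested genes 0.154% were called higher there and 0% lower. Iigp1, an immunity-related GTPase, rose by 1.41 ± 0.20, Gbp4 by 1.47 ± 0.24 and Gbp5 by 0.99 ± 0.17. The Cxcl9 difference beside them was 1.17, a call that was lost with the estimated replicate block. Batf2 was the 1 of 8 regulators that passed (0.64 ± 0.08). Of 15 type I interferon genes and 9 NF-kB genes 0 passed. In the 8 h set over both subsets 0.722% of all tested genes were called higher and 0.0993% lower, and the lists differed in their counts. There 0 of 12 IFN-γ-induced genes passed (median -0.0036, against -0.0125 over all tested genes). Of 9 NF-kB genes 4 were higher (median 0.36). They were Tnfaip3 (0.63 ± 0.11) and Nfkbia (0.36 ± 0.06), both inhibitors of NF-kB, the cytokine Il1b (0.55 ± 0.11) and the subunit Rel (0.63 ± 0.12). Cxcl10 lay at 0.61 there without passing. On day 1 no member of any list passed in limma. Ifng itself lay between 6.75 and 7.32 and Foxp3 between 6.88 and 7.64 on all arrays, with no group mean at the filter, and neither was tested. Gbp2, Gbp6, Igtp, Irgm2, Isg15 and Nfkb1 had no probe set with 1 symbol and were not used here.

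**Figure D3:**
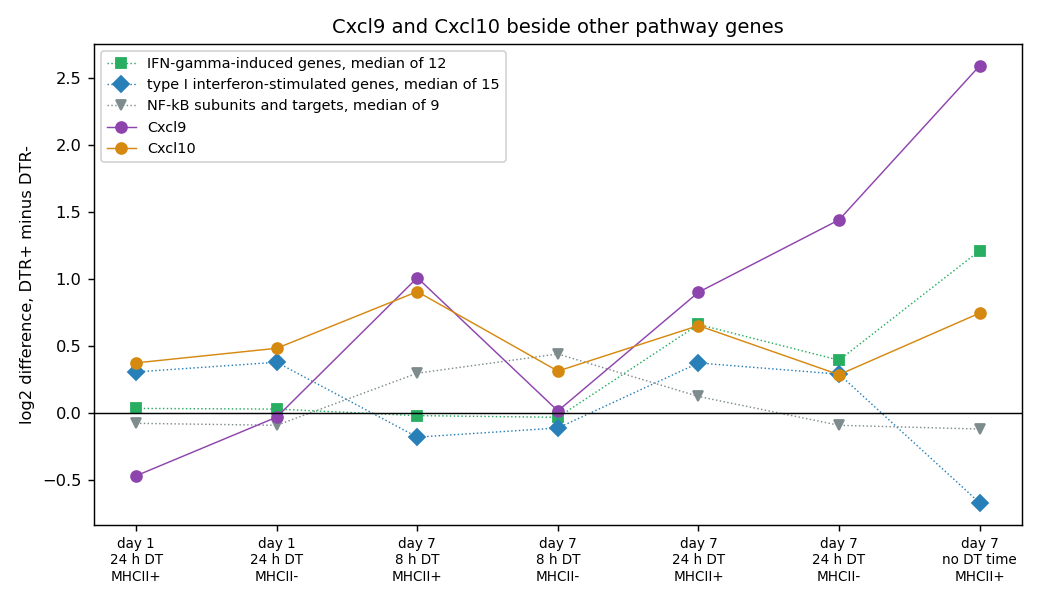
DTR+ minus DTR- difference in log2 intensity of Cxcl9 and Cxcl10, beside the median difference of 12 IFN-γ-induced genes, 15 type I interferon-stimulated genes and 9 NF-kB genes, in each set and subset (lines join comparisons and are not a time course). In the untimed day 7 set Cxcl9 lies at 2.59 and the IFN-γ-induced median at 1.21, while the type I interferon median lies at -0.67.

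MHCII+ cells were then compared with MHCII- cells of the same day and genotype. In uninjured muscle both chemokines were higher in MHCII+ cells. Cxcl9 read 10.26 and 10.61 in MHCII+ arrays, against 7.54 and 6.96 in MHCII- arrays, a difference of 3.18 ± 0.43 (limma adjusted p = 1.1e-06, 8.44% of genes called higher and 19% in either direction). Cxcl10 read 11.78 and 12.34 in MHCII+ arrays, against 10.69 and 9.23 in MHCII- arrays, a difference of 2.10 ± 0.37 (4.29-fold, limma adjusted p = 6.9e-05). Neither gene's groups overlapped, which with 2 arrays each is a description and no test, and the share of all tested genes apart was not counted. Both MHCII- values of Cxcl9 lay under the filter. The Cxcl10 difference depended on the MHCII- arrays, at 2.83 without replicate 1 and 1.37 without replicate 2, and passed in both cases. All 7 neutrophil markers were lower in MHCII+ cells, where 10.6% of all tested genes were called lower. Their summed levels were log2 8.90 to 8.96 in MHCII+ arrays, against 13.59 in MHCII- replicate 1 and 9.93 in MHCII- replicate 2. The dendritic cell markers Flt3 (1.96 ± 0.19), Ccr7 (3.81 ± 0.42) and Clec9a (1.56 ± 0.22), 3 of 4 tested, were higher in MHCII+ cells, and their list summed to 11.31 to 12.18 in MHCII+ arrays, against 9.39 to 9.47 in MHCII- arrays. Cd2 was higher by 3.44 ± 0.25. The macrophage marker sum was 15.02 to 15.14 in MHCII+ arrays, against 15.53 to 15.59 in MHCII- arrays. The B cell list, of which no gene was tested, summed to 7.28 to 8.37 in MHCII+ arrays, against 6.42 to 6.54 in MHCII- arrays. The part of these genes in the chemokine differences was not tested.

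After injury Cxcl9 kept the same direction and passed in 2 of 6 comparisons of the main fit. The subsets of day 1 DTR+ cells were not compared. In the 6 comparisons MHCII+ arrays lay above MHCII- arrays without overlap, except in day 1 DTR- cells. That separation is a description, since the share of all tested genes that show it was not counted. In 24 h DTR- cells, where the single values are given above, the difference was 1.78 ± 0.33 (limma adjusted p = 7.3e-04, 5.23% of genes called and 2.04% called higher). In 8 h DTR+ cells it was 2.09 ± 0.35 (limma adjusted p = 1.9e-04, 7.98% called, 2.99% higher and 4.99% lower), and 1.91 without MHCII+ replicate 1. Other markers moved with it. In 24 h DTR- cells 3 of 4 dendritic cell markers were higher in MHCII+ cells, with 2 of 6 muscle, 1 of 4 fibroblast and 1 of 3 T and NK cell genes, and 1 of 7 macrophage markers was lower. The dendritic cell sum there was 10.29 to 10.73 in MHCII+ arrays, against 9.34 to 9.46 in MHCII- arrays. In 8 h DTR+ cells 3 of 4 dendritic cell and 2 of 3 T and NK cell genes were higher and 2 of 7 macrophage markers lower, with a dendritic cell sum of 10.08 to 11.26 in MHCII+ arrays, against 9.27 to 9.38 in MHCII- arrays. The part of these genes in the Cxcl9 differences was not tested. Cxcl9 did not pass in 24 h DTR+ cells (1.243 ± 0.39, adjusted p = 0.14, 1.37% called and 1.14% higher) or in 8 h DTR- cells (1.10 ± 0.33, adjusted p = 0.078, 2.21% called). With same-numbered subsets of the 8 h DTR- samples as a replicate block, the difference was 0.98 and passed with an estimated correlation (adjusted p = 0.033), and was 0.80 with a fixed block (adjusted p = 0.34). On day 4 Cxcl9 read 10.48 and 10.40 in MHCII+ arrays, against 9.94 and 8.43 in MHCII- arrays. This difference of 1.25 ± 0.43 did not pass (limma adjusted p = 0.17, 2.12% called and 1.12% higher), and it was 2.00 without MHCII- replicate 1 (adjusted p = 0.026) and 0.50 without MHCII- replicate 2. With the estimated replicate block it was 1.44 and passed (adjusted p = 0.030). On day 1 the difference in DTR- cells was 0.66 ± 0.43 with overlap (limma adjusted p = 0.95, 2.45% called and 2.03% higher).

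Cxcl10 passed between subsets on day 0 only. On day 4 it read 13.05 and 12.99 in MHCII+ arrays, against 13.04 and 12.67 in MHCII- arrays. The subsets overlapped in all 6 comparisons after injury, with differences from -0.06 to 0.56. In 24 h DTR- cells the Cxcl10 interval was -0.63 to 0.51, and the Cxcl9 difference exceeded that of Cxcl10 by 1.84 (1.06 to 2.62). Without MHCII- replicate 3 this excess was 1.27. In 8 h DTR+ cells the excess was 1.53 (0.70 to 2.36), and in 8 h DTR- cells 1.13 (0.35 to 1.91). At day 0 it was 1.08 (0.06 to 2.10), and 0.64 without MHCII- replicate 1.

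The DTR- samples also form a series over days 0, 1, 4 and 7, with the 24 h set standing for day 7. Each day is a set of its own, with its own gate or age and with DT titled only for days 1 and 7, so day and set cannot be told apart. Cxcl9 in MHCII+ cells averaged 10.43, 7.49, 10.44 and 11.43 on days 0, 1, 4 and 7, with n = 2, 2, 2 and 4. It fell by 2.94 ± 0.43 on day 1 relative to day 0 (limma adjusted p = 3.5e-06; 17% of genes called lower, 35.6% in either direction). It rose by 2.95 ± 0.43 on day 4 relative to day 1 (limma adjusted p = 9.6e-06, 15.4% called). The day 1 mean lies under the filter. The groups did not overlap in either step, which with 2 arrays each is a description and no test. The day 1 mean rests on arrays at 8.16 and 6.82, so that leaving out each array in turn gave falls with log2 values of -3.61 to -2.28 and rises of 2.28 to 3.62, all of which passed. Day 7 stood 0.99 ± 0.37 above day 4 without passing (limma adjusted p = 0.16, 2.46% called), and passed when these arrays were fitted alone (adjusted p = 0.016). With the 8 h set as day 7 the same difference was 0.24 (adjusted p = 0.71), and with the untimed set 0.21 (adjusted p = 0.89).

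Cxcl9 in MHCII- cells averaged 7.25, 6.83, 9.19 and 9.65 on days 0, 1, 4 and 7. It was low on both of the first days, where its arrays overlapped (-0.42 ± 0.43, limma adjusted p = 0.54, 25.6% called). It rose by 2.36 ± 0.43 on day 4 relative to day 1 (limma adjusted p = 9.1e-05, 24.2% called), and by 1.61 to 3.11 when an array was left out. Day 7 lay 0.46 ± 0.39 above day 4 with overlap (limma adjusted p = 0.70, 1.17% called). It was -0.29 without day 4 MHCII- replicate 2, 1.21 without day 4 MHCII- replicate 1, 0.87 without day 7 MHCII- replicate 3, 0.30 without day 7 MHCII- replicate 1 and 0.21 without day 7 MHCII- replicate 2, and it passed with array weights (0.83, adjusted p = 0.014).

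Cxcl10 followed another course on day 1. In MHCII+ cells it averaged 12.06, 11.61, 13.02 and 12.60 on days 0, 1, 4 and 7, and the step to day 1 was -0.45 ± 0.37 with overlapping arrays (limma adjusted p = 0.35). In MHCII- cells it averaged 9.96, 11.29, 12.86 and 12.65, and it rose by 1.33 ± 0.37 on day 1 relative to day 0 (2.51-fold, limma adjusted p = 0.0069), as did 9.4% of tested genes. That rise did not pass without day 0 MHCII- replicate 2, which read 9.23 (0.60, adjusted p = 0.34), or without day 1 MHCII- replicate 1 (1.00, adjusted p = 0.13). It was 2.05 without day 0 MHCII- replicate 1, the array with the neutrophil genes. All 7 neutrophil markers were lower on day 1 in this comparison, where 16.2% of all tested genes were called lower. On day 4 relative to day 1 Cxcl10 rose in both subsets, by 1.41 ± 0.37 in MHCII+ cells (limma adjusted p = 0.0073) and by 1.57 ± 0.37 in MHCII- cells (limma adjusted p = 0.0016). The MHCII+ rise did not pass without day 1 replicate 2 (1.09, adjusted p = 0.14) or day 4 replicate 2 (1.38, adjusted p = 0.072), nor the MHCII- rise without day 1 replicate 2 (1.241, adjusted p = 0.060). The day 7 minus day 4 difference of Cxcl10 was -0.43 ± 0.32 in MHCII+ and -0.20 ± 0.34 in MHCII- cells, without passing. With the 8 h set as day 7 it was -1.15 in MHCII+ cells and passed (adjusted p = 0.018), and -0.95 in MHCII- cells (adjusted p = 0.083). With the untimed set it was -1.004 in MHCII+ cells (adjusted p = 0.15).

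Within arrays, the Cxcl9 step on day 1 minus that of Cxcl10 was -2.50 in MHCII+ cells (interval -3.51 to -1.48) and -1.75 in MHCII- cells (interval -2.77 to -0.73). The step to day 4 was larger for Cxcl9 by 1.54 in MHCII+ cells (0.52 to 2.56), and in MHCII- cells the excess of 0.79 had an interval of -0.23 to 1.81. Cxcl9 lay under the filter on day 1 in all but 1 of these arrays and on day 0 in both MHCII- arrays.

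**Figure D4:**
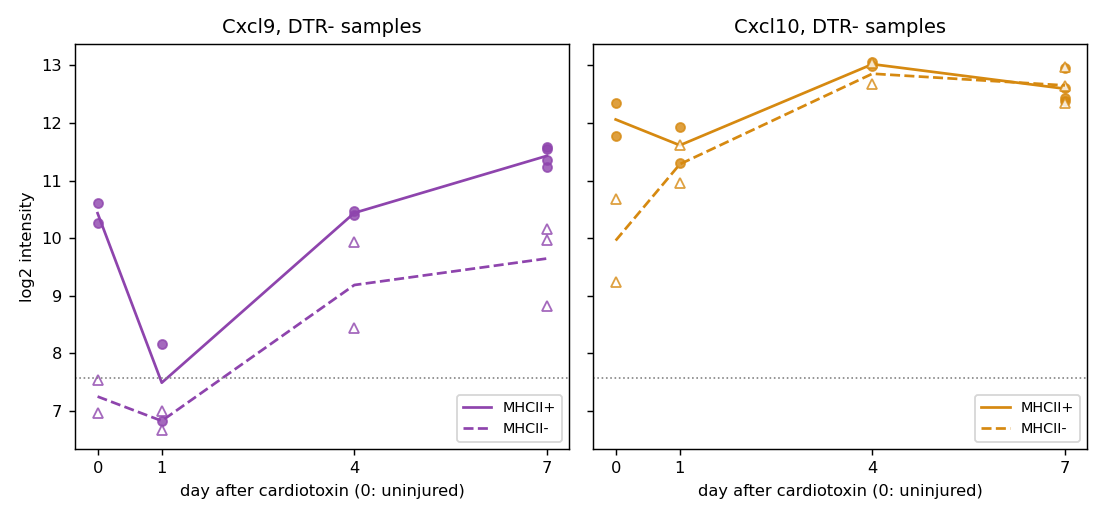
Log2 intensity of Cxcl9 (left) and Cxcl10 (right) in DTR- samples against the day after cardiotoxin, with day 0 uninjured and day 7 from the 24 h set; points are arrays, lines join group means, filled circles and solid lines are MHCII+, open triangles and dashed lines MHCII-, and the dotted line is the intensity filter. Cxcl9 in MHCII+ cells averages 7.49 on day 1 between 10.43 on day 0 and 10.44 on day 4, while Cxcl10 in MHCII+ cells averages 11.61 on day 1.

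The pathway lists were read over the same steps. On day 1 relative to day 0 in MHCII+ cells, 4 of 12 IFN-γ-induced genes were lower and 1 higher (median -0.45, against -0.0070 over all tested genes), where 17% of all tested genes were lower and 18.6% higher. Ciita, the class II transactivator, fell by 1.62 ± 0.21 and Gbp3 by 1.52 ± 0.23, while Fcgr1, an Fc receptor, rose by 1.55 ± 0.23. The regulator Irf1, a transcription factor induced by interferon, fell by 1.92 ± 0.24 in MHCII+ and by 1.99 ± 0.24 in MHCII- cells. Of 15 type I interferon genes 1 was higher and 0 lower in MHCII+ cells, and 0 higher and 3 lower in MHCII- cells, where 9.4% of all tested genes were higher and 16.2% lower. On day 4 relative to day 1, 5 of 12 IFN-γ-induced genes were higher in each subset, and 6 of 15 type I interferon genes in MHCII+ and 4 of 15 in MHCII- cells, with 0 lower in all 4 counts. Of all tested genes 7.77% were higher in MHCII+ and 16.9% in MHCII- cells in this step. Ifit2, an antiviral gene, rose by 2.55 ± 0.46 in MHCII+ and by 2.50 ± 0.46 in MHCII- cells. Cxcr3 fell on day 1 by 0.63 ± 0.16 in MHCII+ and by 1.23 ± 0.16 in MHCII- cells, and it rose on day 4 by 0.67 ± 0.16 in MHCII+ and by 0.85 ± 0.16 in MHCII- cells. In MHCII+ cells 4 of 4 tested dendritic cell markers were lower on day 1 and 2 of 4 higher on day 4. Clec9a fell by 1.35 ± 0.22 and then rose by 1.36 ± 0.22, and Flt3 fell by 0.96 ± 0.19 and then rose by 0.84 ± 0.19. Of 3 tested T and NK cell genes, 2 were lower on day 1 in MHCII+ cells (median -1.09) and 1 was higher on day 4. The summed level of that list was log2 11.97 to 12.11 on day 0, 10.63 to 10.66 on day 1 and 11.05 to 11.16 on day 4. The macrophage sum was 15.02 to 15.14 on day 0 and 15.25 to 15.27 on day 1. The part of these marker genes in the Cxcl9 steps was not tested.

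The genes whose 18 group means ran most like Cxcl9 were Scimp (Pearson's r = 0.940), Gpr31b (0.939), AW112010 (0.935), H2-Q5 (0.931) and Camk2b (0.928). For Cxcl10 they were Adat2 (r = 0.834), Rgs2 (0.828), Ifi205 (0.819), Sdccag8 (0.816) and Prorp (0.816). The 2 lists share no gene. Cxcl11 stood 25th for Cxcl9 (r = 0.877). Cxcl10 stood 558th among all tested genes for Cxcl9, and Cxcl9 stood 48th for Cxcl10.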

How the data were processed

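RNA of 45 sorted samples was hybridised to Affymetrix Mouse Gene 1.0 ST arrays. The deposited values are intensities on a linear scale per probe set and array, from 9.43 to 24649, for which the submitters' processing notes name Affymetrix Power Tools and RMA, without a version. Array medians lay between 175 and 204, and identical arrays were not found. The number of arrays limits the precision.

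Values were converted to log2. Of 24922 probe sets, 21425 had 1 gene symbol in the platform annotation, 1399 had several and 2098 were not listed. Keeping the probe set with the highest mean per gene left 19752 genes, and those with a group mean at or above the median of all values (log2 7.57, 190 linear), 11074 in all, were tested. limma 3.58.1 (R 4.3.3) fitted 1 mean per group over 18 groups (27 residual degrees of freedom) with an intensity trend and Benjamini-Hochberg adjustment in each of 26 comparisons; an adjusted p under 0.05 passed. Intervals are 95%. The comparisons share arrays, so they are not independent. The difference between the changes of the 2 genes came from a linear model of their within-array log2 ratio, chosen after seeing the data, and has an interval and no p-value. On simulated data for the untimed day 7 comparison, the fit recovered 99.5% of 200 genes changed by log2 2 among 11074 and called 7 unchanged genes. The simulation gave each gene 1 SD on all arrays, while the residual SD over all genes ran from 0.10 in the untimed set to 0.24 in the 24 h set. It held no smaller changes, so it does not show how often those are found.

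The members, the 13 gene lists and the comparisons were chosen with earlier results of these data known. Named genes were the 2 members, members of the lists (any may be named; as examples for a described list, up to 3 with the smallest p) and the 5 genes most correlated with each member. Same-numbered samples deviated together in MHCII+ and MHCII- cells of the 8 h DTR- samples (3 pairs, correlations 0.441 to 0.677), and these were taken as paired. Correlations over 0.1 also occurred in comparisons with only 2 pairs. They were 0.694 between genotypes in 8 h MHCII- cells, and 0.242 and 0.289 between DTR- subsets on days 0 and 1. Over time they were 0.220 for day 1 over day 0 in MHCII+ cells and 0.129 for day 4 over day 1 in MHCII- cells. In the other comparisons checked at least 1 correlation lay under 0.1. Alternatives were the filter, quantile normalization, array weights, 50 added before log2, mean probe sets, compared arrays alone, replicate blocks, the 8 h set as day 7, and each array left out. Python 3.11.15 with numpy 2.4.6, pandas 2.3.3 and matplotlib 3.10.9 searched promoters and drew figures.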

Additional observations from a re-analysis of the deposited data

How the results depend on the processing

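Of 400 values of the 2 genes under other settings, 378 kept their direction and side of the threshold, and so did 309 of 352 values with 1 array left out. Averaging probe sets, dropping the filter and fitting the compared arrays alone left the group means of these genes as they were. Under those settings the direction could not change. Differences that passed in neither fit also count as kept, so these counts are no measure of how firm the calls are. The Cxcl9 rise in the 24 h set over both subsets was lost without the filter (1.17, adjusted p = 0.058, with more genes tested), with array weights (0.91), with the compared arrays alone (1.17, adjusted p = 0.19) and with an estimated replicate block (1.19, adjusted p = 0.22). Without each array it was 0.97 to 1.30. The Cxcl9 call in the untimed set held in all settings run, with 2.55 to 2.62. Quantile normalization turned the small Cxcl9 differences in MHCII- cells at 8 h (-0.017) and day 1 (0.023). Array weights, whose estimate stopped short of its convergence tolerance, gave calls for Cxcl9 in 24 h MHCII- cells (0.92), between subsets in 8 h DTR- cells (0.86), for day 7 over day 4 in MHCII- cells (0.83) and for the MHCII- effect at 24 h over 8 h (1.08), and for Cxcl10 in the untimed set (0.75) and over both subsets at 8 h (0.68). They turned Cxcl9 in 8 h MHCII- cells (-0.17), its MHCII+ effect at 24 h over 8 h (0.19) and Cxcl10 between subsets in 24 h DTR- cells (0.11). In 24 h DTR+ MHCII- cells replicates 1, 2 and 3 had weights of 0.46, 31.2 and 0.030. Weighted results that use this group therefore rest almost wholly on replicate 2. With the compared arrays alone, Cxcl10 passed in the untimed set (0.75) and Cxcl9 for day 7 over day 4 in MHCII+ cells (0.99), and the Cxcl10 rise on day 1 in MHCII- cells did not (1.33, adjusted p = 0.088). The fixed replicate block turned the Cxcl10 genotype difference in 8 h MHCII- cells (-0.15), and the estimated replicate block (correlation 0.392) gave Cxcl9 calls between subsets on day 4 (1.44) and in 8 h DTR- cells (0.98). The fixed block of the paired 8 h DTR- samples changed no call. In 5 comparisons fewer than 2 replicate numbers were shared. With the 8 h set as day 7, Cxcl10 in MHCII+ cells was lower than on day 4 (-1.15). The cause was not tested.

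Leaving out each array gave these ranges where a call or a sign changed. For Cxcl9 they were 0.83 to 1.31 in 8 h MHCII+ and -0.28 to 0.25 in 8 h MHCII- cells, -1.13 to 0.20 and -0.19 to 0.14 on day 1 in MHCII+ and MHCII- cells, -0.0042 to 1.33, 0.50 to 2.00 and 0.80 to 1.28 between subsets on day 1, day 4 and in 8 h DTR- cells, -0.29 to 1.21 for day 7 over day 4 in MHCII- cells, and -0.41 to 0.075 for the MHCII+ effect at 24 h over 8 h. For Cxcl10 they were -0.044 to 0.46 in 24 h MHCII- cells, -0.0016 to 0.66, -0.018 to 0.35, -0.21 to 0.10 and -0.24 to 0.11 between subsets on day 1, day 4, in 24 h DTR- and in 8 h DTR- cells, -0.36 to 0.22 for the MHCII- effect at 24 h over 8 h, 0.60 to 2.05 for day 1 over day 0 in MHCII- cells, and 1.09 to 1.72 and 1.241 to 1.90 for day 4 over day 1 in MHCII+ and MHCII- cells.

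Counts of genes past the threshold moved by over 1.5 times over the other settings, left-out arrays included. Between genotypes 1276 became 567 to 4462 in the untimed set, 17 became 1 to 29 and 91 became 19 to 1706 over both subsets at 24 h and 8 h, 6 became 0 to 10 and 1 became 0 to 4157 in MHCII+ and MHCII- cells at 24 h, and 54 became 2 to 778 and 2 became 0 to 3779 at 8 h. On day 1, 0 became up to 84 in MHCII- cells. Between subsets 2104 became 947 to 3546 on day 0, 271 became 148 to 1299 on day 1, 235 became 93 to 461 on day 4, 579 became 222 to 2190 and 245 became 133 to 1140 in DTR- cells at 24 h and 8 h, and 152 became 16 to 563 and 884 became 109 to 1507 in DTR+ cells. Over time, in MHCII+ and MHCII- cells, 3947 became 2337 to 5550 and 2835 became 1673 to 5070 for day 1 over day 0, 1704 became 656 to 2706 and 2680 became 1536 to 6130 for day 4 over day 1, and 272 became 41 to 1790 and 130 became 18 to 4000 for day 7 over day 4. Of the 4 effect contrasts, with 0 calls each, the highest counts were 5, 89, 55 and 4249.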

Other observations

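The 15 tested type I interferon-stimulated genes had no call between genotypes in the timed sets (limma, 0 of 15 in each), yet their signs differed between sets. On day 1 the DTR+ minus DTR- difference was above 0 for 15 of 15 genes in MHCII+ cells (median log2 0.31) and for 15 of 15 in MHCII- cells (0.38). In the 24 h day 7 set it was above 0 for 15 of 15 in MHCII+ cells (0.37) and 13 of 15 in MHCII- cells (0.29). In the 8 h set it was above 0 for 3 of 15 (-0.18) and 4 of 15 (-0.11), and in the untimed set for 1 of 15 (-0.67). These genes move together, so the counts are descriptions and no test was made. Cxcl10, which type I interferon also induces, lay above 0 in all 7 comparisons, from 0.29 to 0.91, but it was -0.044 in 24 h MHCII- cells without DTR+ replicate 3 and -0.15 in 8 h MHCII- cells with the fixed replicate block.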
